A study of Mus musculus with 11 samples.

Results

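Bystander nuclei are defined here as trigeminal neuron nuclei that carried 0 UMIs (unique molecular identifiers, 1 per captured RNA molecule) of 6 genes of the axotomy response, Atf3, Sema6a, Sprr1a, Itgb6, Flrt3 and Gadd45a. They stand for the neurons of an injured ganglion in which that response was not detected. The 6 genes formed a gate that was applied to an uninjured control and to 4 ganglion libraries taken after partial infraorbital nerve transection (IOT). It kept 12979 of the 20692 nuclei in these 5 libraries, out of 40359 nuclei in the whole series. The early side held 5123 bystander nuclei (2282 at day 2 and 2841 at day 7), the late side held 4561 (2486 at day 21 and 2075 at day 75), and the control held 3295. The nuclei were selected on measured counts of the 6 genes, so the absence of those genes is a description and not a result.

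Control and IOT mice were C57BL animals (C57BL/6NCrl in the study's methods) older than 6 weeks by the labels, the control labelled wildtype, with males and females pooled. IOT cut the superficial branches of the infraorbital nerve, a sensory branch of the trigeminal nerve, and left the rest of the nerve in place, a model the labels call spared nerve injury. The ganglion of the operated side was taken, which contains cut and uncut neurons together. Control mice had no operation. Each library is a pool of ganglia from several mice and the only library of its day, so the day after surgery, the pool of mice and the preparation cannot be told apart. Days 2 and 7 served as the 2 samples of the early side and days 21 and 75 as the 2 samples of the late side.

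When a sensory axon is cut, its cell body switches on a regeneration programme led by transcription factors such as Atf3 and Sox11, together with growth, adhesion and cytokine genes, while many channels, receptors and peptides of the mature neuron decline. Neurons whose axons were spared lie beside the cut ones and share satellite glia, blood vessels and immune cells with them. Such neighbours are of interest in neuropathic pain because they still connect the skin to the brain. The comparison of early with late bystander nuclei asks whether these neurons changed with time after the lesion.

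The gate kept 75.4% of control nuclei, 49.5% at day 2, 70.4% at day 7, 61.4% at day 21 and 57.1% at day 75. The exact (Clopper-Pearson) 95% interval was widest at day 75, from 55.5% to 58.7%, and these intervals cover counting error only. These shares depend on depth, since a shallow nucleus shows 0 UMIs of a weakly expressed gene more easily. The median UMIs per nucleus over all nuclei were 1747 at day 7 against 3138 to 4178.5 in the other 4 libraries. After every nucleus was thinned to 1143 UMIs, which left out 401 shallower nuclei, all of them at day 7, the shares were 91.6% in the control, 72.1% at day 2, 78.2% at day 7, 82.7% at day 21 and 84.3% at day 75. At equal depth the order of the 4 IOT libraries followed the day, whereas the unthinned order put day 7 highest. Sprr1a is not listed in the control table, where the gate therefore rested on 5 genes.

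Nuclei just outside the gate were close to those inside it in injury gene level, except at day 7. Exactly 1 gate UMI was found in 600 to 1090 nuclei of a library, and their median depth of 1961 to 4520 UMIs was above the 1654 to 3767 UMIs of nuclei with 0 gate UMIs in the same libraries. The 22 other injury genes that all 5 tables list were summed per library as CPM, UMIs of a gene scaled to a library total of 1000000. At day 2 their level was 2074 CPM with 0 gate UMIs, 2100 with 1 and 6963 with 2 or more. At day 7 the corresponding levels were 1869, 2431 and 8696 CPM, at day 21 they were 1957, 1875 and 5247 CPM, and at day 75 they were 1646, 1617 and 2455 CPM. The control stood at 1702, 1681 and 1586 CPM. In the IOT libraries the level was higher with 2 or more gate UMIs than with 1, and in the control it was not.

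**Figure D1:**
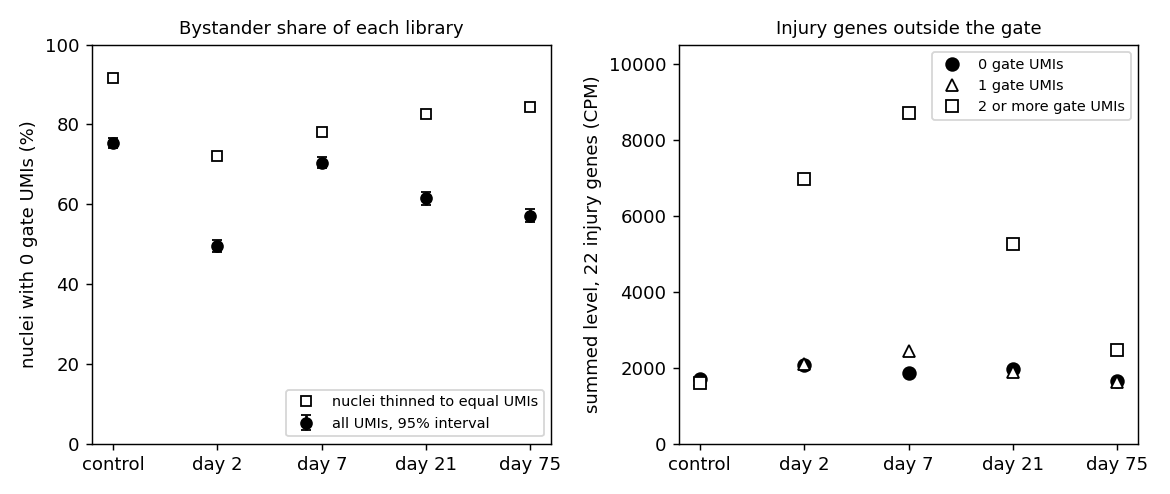
Left, the share of nuclei with 0 gate UMIs in each library (circles, with 95% exact binomial intervals; squares, after thinning each nucleus to 1143 UMIs). Right, the summed level in CPM of 22 injury genes outside the gate, in nuclei with 0, 1 or 2 or more gate UMIs; bystander nuclei lay between 1646 and 2074 CPM in all 5 libraries.

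Single injury genes showed the same separation, given here as a description because the gate chose the nuclei. Sox11, a transcription factor of growing neurons, was at 61.8 CPM in control bystander nuclei, 89.3 at day 2, 64.5 at day 7, 92.8 at day 21 and 58.9 at day 75. In the nuclei that the gate removed it was at 59.5, 231, 273, 202 and 89.8 CPM in the same order. Gal, which encodes the peptide galanin, was at 21.0, 31.3, 21.9, 20.5 and 9.04 CPM in bystander nuclei and at 12.4, 105, 150.4, 41.0 and 9.88 CPM in removed nuclei. Mmp16, a membrane-bound matrix metalloproteinase, was at 186, 230.1, 131, 226 and 138 CPM in bystander nuclei and at 192, 600, 552, 456 and 178 CPM in removed nuclei. Csf1, a cytokine that acts on microglia and macrophages, stayed between 4.00 and 10.2 CPM in bystander nuclei and reached 45.8 CPM in removed nuclei of day 7. Removed nuclei of days 2, 7 and 21 were above the bystander nuclei of their library in each of these 4 genes.

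The nuclei were neuronal by their markers. Snap25, a core protein of synaptic vesicle release, was at 874 CPM in the control, 810 at day 2, 687 at day 7, 1092 at day 21 and 841 at day 75. Slc17a6, the vesicular glutamate transporter of sensory neurons, was at 164, 156, 132, 205 and 158 CPM. Transcripts of other cells were present too. The 12 satellite glia markers summed to 417 to 904 CPM and the 12 Schwann cell markers to 1152 to 1839 CPM, and none of either list was at 0 in all 5 libraries. Bystander nuclei gave 5971650 (day 7) to 12122531 (control) UMIs per library for the sums tested below, and any pair of libraries shared 16 to 39 cell barcodes.

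With all 5 libraries in the fit, bystander nuclei early and late after IOT differed in a small group of genes, all of them lower late. Of 16701 genes tested with edgeR's quasi-likelihood test, 58 fell from the early to the late libraries (0.347% of those tested) and 0 rose (0%), at a Benjamini-Hochberg adjusted p under 0.05. At an unadjusted p under 0.05, 798 genes were lower late and 92 were higher. DESeq2 called 96 lower genes and 1 higher gene, Apoe, and 57 of the 58 were among its calls. The 58 differences ran from -4.88 to -1.78 on the log2 scale with a median of -2.47, beside a median of 0.02 over all genes tested. The count depended on the day 7 library. Without it 1 gene passed, Slc9a4, while all 58 genes kept a negative difference with a median of -2.07. Without day 2 the test called 100 genes lower and 2 higher, without day 21 it called 291 lower and 18 higher, and without day 75 it called 309 lower and 47 higher, and 44, 54 and 53 of the 58 were among these calls. The 18 included Apoe, Gfap, Aqp4, H2-Aa and 4 hemoglobin genes. When the control was left out of the fit 3 genes passed (Gm11725, Slc9a4 and Spatc1), and a linear trend over log2 day called 0.

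The 12 largest falls among genes at 10 CPM or more are described next, and in each of them both early libraries were above both late ones. Caln1 encodes calneuron 1, a neuronal calcium-binding protein (chr5:130369455-130847412, mm10). Its level was 122 CPM in control bystander nuclei, 907 at day 2, 2486 at day 7, 227 at day 21 and 82.4 at day 75. The late libraries lay on either side of the control and the early ones far above it, a difference of -3.42 ± 0.61 (SE) on the log2 scale with an adjusted p of 0.032 (n = 2 against 2).

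Rab23 encodes a small GTPase known as a brake on Hedgehog signalling (chr1:33719887-33742564). It was at 26.5 CPM in the control, 251 at day 2, 599.5 at day 7, 64.8 at day 21 and 17.4 at day 75. Its difference of -3.34 ± 0.59 had an adjusted p of 0.030. Brca2, a DNA repair gene of homologous recombination (chr5:150522630-150570329), followed the same order at 29.1, 222, 385, 70.8 and 22.8 CPM. Its difference was -2.68 ± 0.51 (adjusted p = 0.040). In both genes day 21 was above the control and day 75 below it.

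Slc9a4, a sodium-hydrogen exchanger (chr1:40580081-40630725), had the largest fall of the 12. It was at 1.07 CPM in the control, 18.5 at day 2, 20.1 at day 7, 1.06 at day 21 and 0.425 at day 75, a difference of -4.67 ± 0.55 (adjusted p = 0.0052). Here the 2 early libraries were nearly equal. Aox2, an aldehyde oxidase, was at 1.15, 9.74, 58.8, 2.00 and 2.77 CPM in the same order, so that day 7 was well above day 2. Over the 58 genes day 7 was above day 2 in 53.

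Sag, the arrestin of rod photoreceptors, was at 7.42 CPM in the control, 42.3 at day 2, 101 at day 7, 13.1 at day 21 and 7.23 at day 75. Another gene of rod phototransduction, Pde6b, was also among the 58, at 2.80, 26.8, 32.2, 4.94 and 5.53 CPM, as was Tmc1, a channel subunit of hair cell mechanotransduction, at 23.7, 80.0, 72.0, 19.99 and 22.6 CPM. Pde6b and Tmc1 were picked out after their values were seen. In all 3 genes both early libraries were above the control and both late ones.

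Of the other 6 of the 12, mt-Atp8 is the mitochondrially encoded subunit 8 of ATP synthase and was at 15.8, 36.8, 146, 5.64 and 12.2 CPM in the 5 libraries from control to day 75. Wfdc8, of the WAP protease inhibitor family, was at 3.88, 44.1, 83.2, 11.1 and 2.02 CPM. Hhla1 was at 9.40, 31.3, 162, 10.1 and 9.36 CPM, and Lrrc17, a secreted leucine-rich repeat protein, at 6.02, 49.6, 100.3, 15.5 and 7.13 CPM. Gm20680 was at 37.6, 163, 443, 44.3 and 28.3 CPM, and the noncoding Gm28652 at 2.72, 11.1, 38.8, 2.35 and 3.62 CPM. In each of these genes both early libraries were above the control and above both late libraries.

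**Figure D2:**
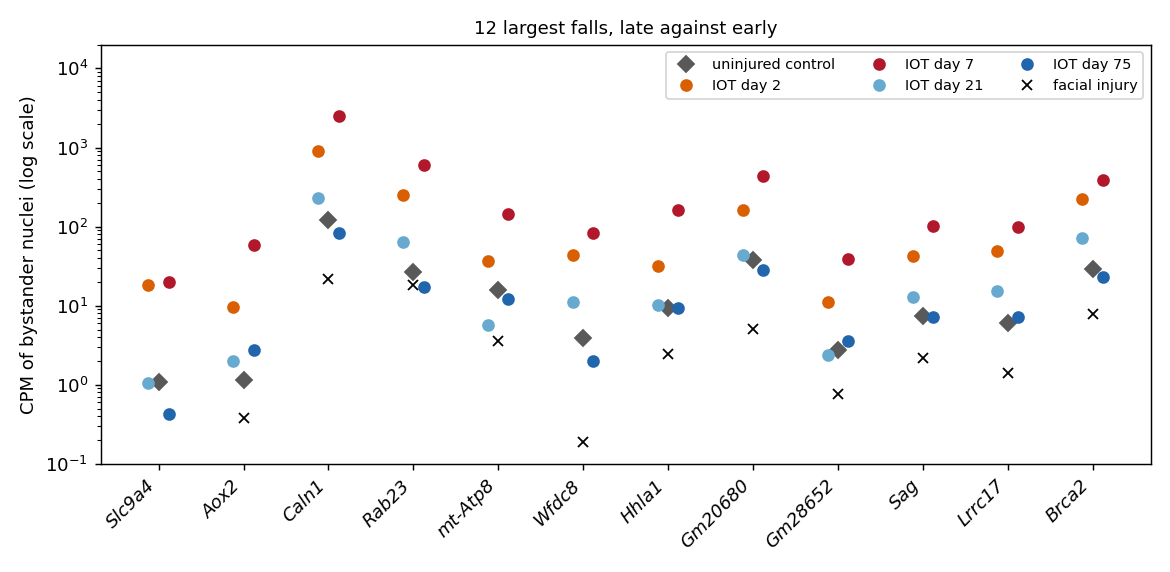
Level in CPM (log axis) of the 12 largest falls in bystander nuclei of each library, 1 symbol per library. Both early libraries (orange and red) are above both late libraries (blues) for all 12 genes, and facial injury at day 2 (crosses, not listed for Slc9a4) is below both early libraries.

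The same genes were higher at days 2 and 7 in nuclei that the gate had removed. Caln1 was at 127 CPM in removed control nuclei, 1299 at day 2, 3010 at day 7, 250 at day 21 and 86.5 at day 75. All 58 genes were lower late in the removed nuclei as well, with a median of -2.74, and 51 of them passed the test there, where 138 of 16481 genes were called lower (0.837%) and 0 higher (0%; 1216 lower and 148 higher at an unadjusted p under 0.05). The summed level of the 58 genes was 880 CPM in control bystander nuclei, 4802 at day 2, 10340.0 at day 7, 1282 at day 21 and 1005 at day 75, beside 909, 6781, 12641, 1394 and 1143 CPM in removed nuclei. The fall of these genes was thus measured in both kinds of nuclei of the same libraries.

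Whether the late against early difference itself depended on the gate was tested by an interaction term with the library as a block. Of 16534 genes, 110 had a higher difference in bystander than in removed nuclei (0.665%) and 7 a lower one (0.0423%). Of the 58 genes, 2 were among the 110, Rab23 and Teddm2. The median interaction of the 58 was 0.29, beside -0.0017 over all genes in that test. For Rab23 the difference was -3.34 in bystander and -3.84 in removed nuclei, an interaction of 0.48 ± 0.11 (adjusted p = 0.045). For Caln1 the interaction was 0.34, with a 95% interval from 0.14 to 0.53 and an adjusted p of 0.12.

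Several injury genes were called in that interaction. Gm29266, a noncoding transcript listed as an injured class marker, was at 50.1, 35.6, 49.4, 23.0 and 53.7 CPM from control to day 75 in bystander nuclei, and at 49.5, 191, 386, 54.4 and 64.2 CPM in removed nuclei. The interaction was 2.09 ± 0.21 (adjusted p = 0.00011). Itga7, a laminin-binding integrin subunit, was at 50.7 to 64.0 CPM in all 5 sets of bystander nuclei and at 63.9, 143, 195, 86.3 and 68.6 CPM in removed nuclei (interaction 0.92 ± 0.14, adjusted p = 0.0037). Gal, Mmp16 and Sox11 also had adjusted p values under 0.05 for the interaction, of 0.016, 0.012 and 0.037. The gate selected for such genes, so their presence on this list follows in part from the choice of nuclei. The peptide gene Adcyap1 was called too, with an interaction of 0.72 (adjusted p = 0.014). The part that the choice of nuclei had in the Adcyap1 value was not tested. Without day 75 the interaction called 25 genes in place of 117, and without day 2, day 7 or day 21 it called 418, 205 and 245.

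Other injuries gave a reference level for the 58 genes. Facial injury at day 2 was made by shallow cuts to the facial skin of C57BL mice. Scratch lesions came from chronically scratching mice of a mixed FVBN/C57BL/129 background that carried Fos-tTA and tetO-mCherry-2A-Gnaq* transgenes, the latter for a constitutively active G protein subunit. The same gate was applied to both, and for scratch lesions the strain, the transgenes and the lesions cannot be told apart. Of the 53 genes listed in the facial injury table, all 53 were below both early IOT libraries and 52 were below the control. All 55 genes listed for scratch lesions were below both early IOT libraries. How many of all tested genes lay below the same libraries was not counted. The 58 genes were called for higher early than late levels, so lying below the early libraries follows in part from that choice. The summed level of the 58 genes was 309 CPM after facial injury, 477 after scratch lesions and 282 in the Drop-seq control. Caln1 was at 21.7, 42.7 and 19.9 CPM there, each below the 122 CPM of the 10x control. These 3 tables entered no test, and lists of genes differ between tables.

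The 58 genes were compared with all tested genes by biotype, length and chromosome alone, and shared functions were not tested. Of the 55 found in GENCODE vM21, 43 (78.2%) were protein coding, against 85.2% of the 16146 matched genes among all tested, and the median gene length was 29927 bp against 26084 bp. The 55 lay on 17 chromosomes, with at most 8 on any one. The 16146 lay on 22, with at most 1288 on any one. The early level of the 58 was above the control in both early libraries without exception, and 57 were more than 2-fold above it in both. In the late libraries 35 were within 2-fold of the control in both. The 58 were called for high levels in these same early libraries, so their place above the control follows in part from that choice. Shares over all tested genes were not counted, and the edgeR test of early libraries against the control called 0 genes.

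The late against early difference was also measured within single neuron classes. Clusters of bystander nuclei were named from markers kept out of the clustering, and the 5 classes with at least 50 nuclei in each IOT library were tested separately. They were C1/2 (Trpm8 cold-sensing neurons), C3 (low-threshold C fibers), C5 (Ntrk2 and Cadps2 mechanoreceptors), C7-10 (peptidergic nociceptors) and C13 (Mrgprd nonpeptidergic nociceptors). Late bystander nuclei had 17 lower genes in C1/2 (0.199% of 8523 tested), 9 in C3 (0.149% of 6030), 10 in C5 (0.209% of 4777), 30 in C7-10 (0.332% of 9028) and 47 in C13 (0.532% of 8837). A single gene was called higher, Gm21847 in C7-10, at 8.97 and 15.99 CPM early and 75.7 and 112.5 CPM late. In the other 4 classes 0 were called higher, with 26 to 94 higher at an unadjusted p under 0.05. With finer clusters (Leiden resolution 2), Gm21847 was among the leading genes of a C7-10 cluster led by Chrnb3. It was not among those of a C7-10 cluster led by Car8. Whether the mix of such clusters within C7-10 differed between the sides was not tested.

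Caln1, Rab23, Gm20680, Ddr2, Prss41 and Unc5cl passed in all 5 classes. With the finer clustering at Leiden resolution 2, C5 had 1 called gene in place of 10, so at most 1 of these 6 passed in all 5 classes there. Caln1 in C13 was at 83.2 CPM in the control, 819 at day 2, 2015 at day 7, 199.98 at day 21 and 49.5 at day 75. In C7-10 it was at 79.8, 420.0, 1030, 127 and 44.4 CPM, and in C3 at 76.8, 517, 1146, 127 and 43.3 CPM. The order of the libraries was the same in each class. In the classes the genes of the 58 that could be tested numbered 16 (C3) to 43 (C13), and every one of them was lower late. Their medians were -2.15 to -2.54, beside 0.008 (C1/2) to 0.03 (C13) over all genes tested in a class. The class nuclei are part of the sums in which the 58 were called, so the shared sign follows in part from that choice. The 58 genes were left out of the clustering, as were the gate and list genes.

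**Figure D3:**
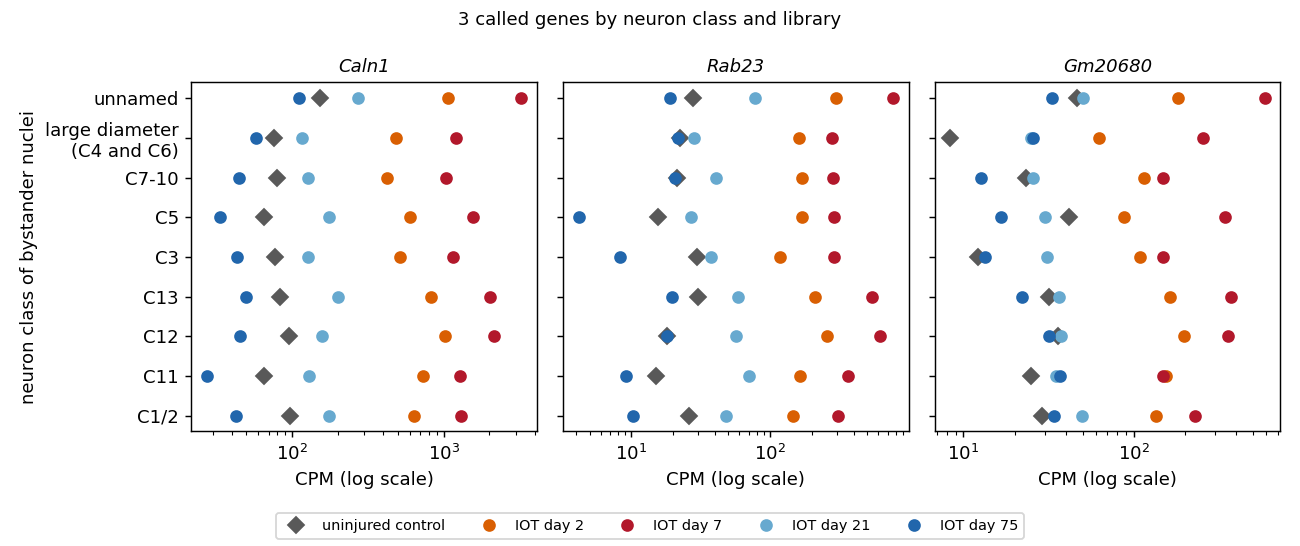
Level in CPM (log axis) of Caln1, Rab23 and Gm20680 in bystander nuclei of each neuron class, 1 symbol per library. In each class the day 2 and day 7 libraries (orange and red) lie to the right of the day 21, day 75 and control libraries; Caln1 in C13 reached 2015 CPM at day 7.

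With all 5 libraries in the fit, the channel, receptor, peptide and synaptic lists of a mature sensory neuron held no called gene. Over all 16701 genes 0.347% were called lower late and 0% higher. At that share, lists of this size would hold few called genes or none. The 31 gene lists together held 533 tested genes, of which 1 passed, mt-Atp8. That count was 3 without day 2, 0 without day 7, 16 without day 21 and 6 without day 75. The 16 included Scn3a, Grin2b and Ifit1 lower late and Apoe higher late. DESeq2 also called Apoe and Myo10. A difference smaller than 1 on the log2 scale was found for 92.7% of the list genes and 91.6% of all genes. The median half-width of the unadjusted 95% interval of a list gene was 0.885, and the smallest difference called among all genes was -1.78, so smaller changes may have gone uncalled with 2 libraries a side.

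Ion channel genes had medians near 0. None of 13 sodium channel genes passed the test and 0 were under an unadjusted p of 0.05, with a median of 0.15. Scn9a, the pain-related channel Nav1.7, was at 575 CPM in the control, 652 at day 2, 429 at day 7, 835 at day 21 and 513 at day 75. Its sides overlapped and its difference was 0.32 ± 0.46. Scn3a, a channel mainly of embryonic neurons, was at 67.4, 88.4, 190.4, 158 and 35.1 CPM and differed by -0.50 ± 0.55. Without day 21 Scn3a was called lower late (-1.93, adjusted p = 0.049), and without day 7 or day 75 its difference was 0.10 and 0.20. Among 39 potassium channel genes the median was 0.05 and among 18 calcium channel genes -0.01, again with 0 called and 0 at an unadjusted p under 0.05. Kcna4 was the potassium channel with the lowest p, at 24.3 and 13.9 CPM early and 35.2 and 26.3 CPM late (0.68 ± 0.38).

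Receptors and transduction genes gave the same picture. The 30 sensory transduction genes had a median of 0.03 and lay between -0.66 and 0.81, with 0 called and 0 at an unadjusted p under 0.05. The serotonin-gated channel subunit Htr3a was at 28.5 and 25.6 CPM early, 35.2 and 46.3 CPM late and 41.7 CPM in the control, so that the sides did not overlap. Late libraries above early ones without overlap were found for 4 of the 30, against 11.7% of all genes, and late below early for 1 of the 30, against 16.1% of all genes. The 21 inhibitory receptors had a median of 0.09, the 11 GABA-A receptor subunits 0.28, and the 17 ionotropic glutamate receptor subunits 0.08. Grin2b, an NMDA receptor subunit, was the 1 gene of these 3 lists under an unadjusted p of 0.05, at 10.7 and 16.1 CPM early and 9.17 and 3.72 CPM late (-1.03 ± 0.46, adjusted p = 0.87), and it was called without day 21 (-1.79, adjusted p = 0.042). Its control level was 10.2 CPM.

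Peptides, growth factor receptors and transcription factors followed. Of 13 neuropeptide genes 0 passed, and 1 was under an unadjusted p of 0.05. That gene was Nts, which encodes neurotensin, at 3.46 CPM in the control, 4.12 and 7.20 early and 14.1 and 11.7 late (1.23 ± 0.44, adjusted p = 0.53). In removed nuclei Nts was at 15.6 and 96.7 CPM early and 93.9 and 30.3 CPM late. Calca, the gene of the migraine peptide CGRP, was at 428 CPM in the control, 344 and 475 early and 503 and 512 late. Of 14 neurotrophic receptor genes Egfr alone was under an unadjusted p of 0.05, at 9.74 and 14.6 CPM early and 4.59 and 6.28 CPM late. The 28 identity transcription factors had a median of 0.12, and Bcl11a, a factor of developing sensory neurons, was at 41.1 and 42.7 CPM early and 21.6 and 23.8 CPM late against 30.8 CPM in the control (-0.86 ± 0.34, adjusted p = 0.69).

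Synaptic release and axon guidance genes showed no called change. The 30 release genes had a median of 0.12 and the 33 guidance genes 0.02, each with 0 called and 0 at an unadjusted p under 0.05. Within 0.5 on the log2 scale were 28 of 30 and 31 of 33, beside 12530 of the 16701 genes. Sema3e, a secreted guidance cue, was at 163 CPM in the control, 252 and 326 early and 129 and 225 late, so its sides were apart by a narrow margin (-0.68 ± 0.42).

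Lists that mark systemic state were also examined. The 19 circadian clock genes had a median of 0.07, the 12 glucocorticoid-responsive genes 0.03 and the 13 immediate early genes 0.05, with 0 called. Errfi1, a feedback inhibitor of EGF receptor signalling, was the 1 gene of these lists at an unadjusted p under 0.05, at 25.4 CPM in the control, 38.8 and 67.8 early and 30.6 and 28.2 late. The 20 interferon and antigen presentation genes had a median of -0.21 with 0 at an unadjusted p under 0.05. Ifit1, an interferon-induced gene, was at 8.50, 8.99, 56.6, 24.1 and 8.51 CPM from control to day 75, so day 7 stood apart and day 2 did not. Without day 21 it was called lower late (-1.85, adjusted p = 0.014).

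Heat shock and unfolded protein genes had a positive median difference and no call, and their summed level overlapped between the sides. The sum was 1898 CPM in the control, 1134 and 1729 early and 1614 and 2134 late, so day 21 was below day 7 and below the control. The median over 18 genes was 0.46, 8 of 18 were higher late without overlap against 11.7% of all genes, and 0 passed the test. Hspa5, the endoplasmic reticulum chaperone BiP, was at 43.9 CPM in the control, 31.8 and 17.2 early and 55.0 and 65.1 late (1.29 ± 0.39, adjusted p = 0.30). Sdf2l1, a partner of BiP, was at 4.54 CPM in the control, 2.50 and 1.51 early and 6.94 and 3.94 late (1.42 ± 0.57, adjusted p = 0.70). The control level of Hspa5 lay between the sides, that of Sdf2l1 between the late libraries, and Hspa5 was at 134 CPM after facial injury.

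**Figure D4:**
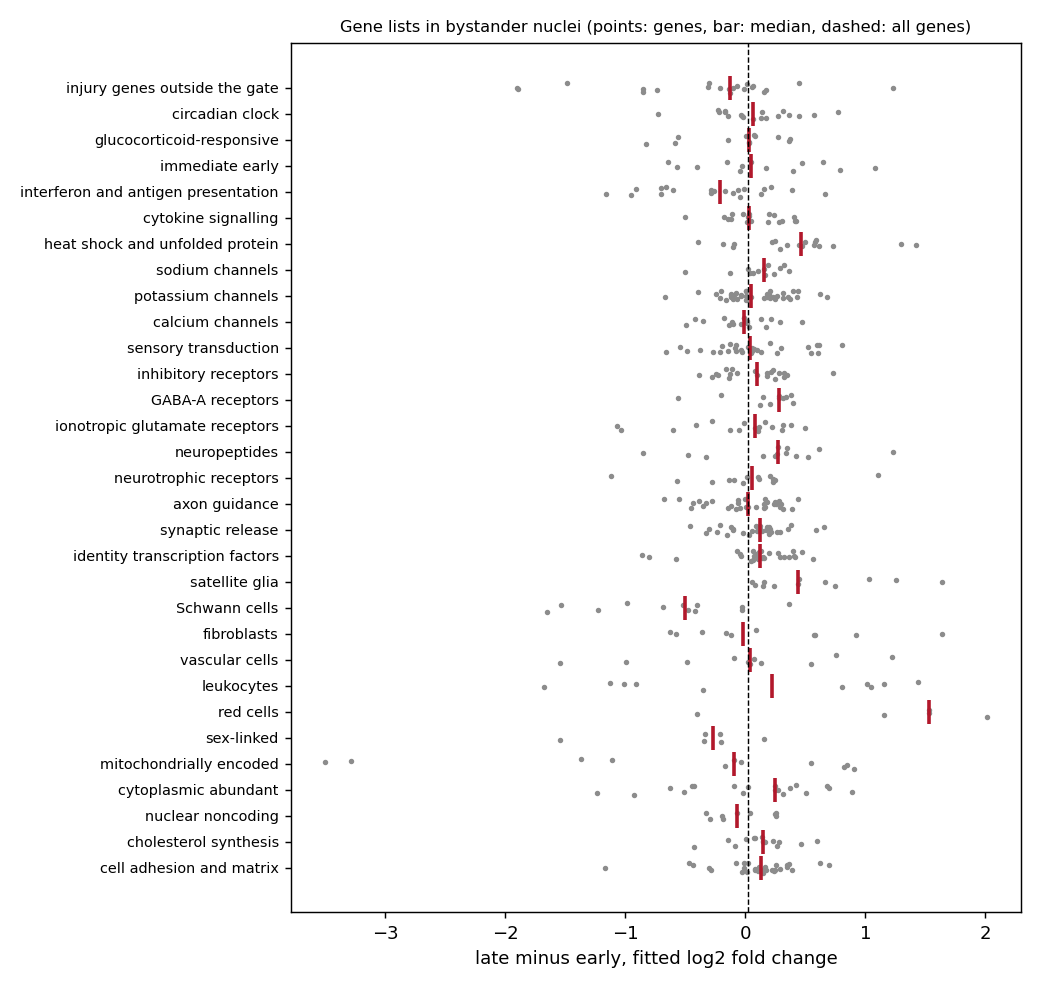
Fitted late minus early log2 fold change of each tested gene (points) in 31 gene lists, with the list median (red bar) and the median of all tested genes (dashed line, 0.02). Most lists center near 0; Schwann cell genes (median -0.50) lie to the left and heat shock (0.46), satellite glia (0.44) and red cell genes (1.53) to the right.

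The 21 injury genes outside the gate that were tested had a median of -0.13, and 8 of them (38.1%) were lower late without overlap, against 16.1% of all genes. None passed the test with edgeR, 1 was lower and 1 higher at an unadjusted p under 0.05, and DESeq2 called Myo10. Myo10, a filopodial myosin, was at 67.8 CPM in control bystander nuclei, 257 at day 2, 392 at day 7, 75.6 at day 21 and 93.5 at day 75 (-1.91 ± 0.41, adjusted p = 0.064). In removed nuclei it was at 71.4, 403, 592, 111 and 112 CPM. Both early libraries of bystander nuclei were above the control and both late ones. Myo10 was called lower late by edgeR within C13 (-2.14 ± 0.43, adjusted p = 0.016), with thinned nuclei (adjusted p = 0.037), with no gate (0.0496) and without day 2 (0.022). Over its other edgeR and limma alternatives except the trend on day the adjusted p ran from 0.061 to 0.51.

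Transcripts of other cells differed in level between the sides. With all 5 libraries in the edgeR fit, 0 Schwann cell and 0 satellite glia markers passed. Of the 12 Schwann cell markers 9 (75.0%) were lower late without overlap, against 16.1% of all genes, and 0 higher, against 11.7%. Their median was -0.50, and 4 were lower at an unadjusted p under 0.05. Prx, a gene of myelinating Schwann cells, was at 28.9 CPM in the control, 39.1 and 43.2 early and 21.99 and 12.8 late. Satellite glia markers stood the other way, with 4 of 12 higher late without overlap, against 11.7% of all genes, and a median of 0.44. Apoe, a lipid carrier of glia, was at 232 CPM in the control, 141 and 106 early and 294 and 469 late (1.64 ± 0.43, adjusted p = 0.18), and it was called without day 21 (adjusted p = 0.0497). Summed, satellite glia markers were at 589 CPM in the control, 460 and 417 early and 613 and 904 late, and Schwann cell markers at 1328, then 1637 and 1839, then 1340 and 1152. Nuclei in which these markers exceeded 1% of UMIs were then left out. That kept 3269 of 3295 nuclei in the control, 2264 of 2282 at day 2 and 2783 of 2841 at day 7. At day 21 it kept 2467 of 2486 and at day 75 it kept 2058 of 2075. In these sums 49 of the 58 genes were called and no others. So few nuclei were dropped that this refit cannot tell what glial RNA contributed. In sums over pooled nuclei, fewer nuclei with such transcripts and less of them per nucleus cannot be told apart. The part of glial RNA in the neuronal values was not tested.

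Day 75 had more blood and stromal transcripts than the other libraries. The 5 red cell genes summed to 54.0 CPM in the control, 64.5 at day 2, 37.7 at day 7, 49.1 at day 21 and 221 at day 75. Fibroblast markers summed to 252 CPM at day 75 against 106 to 147 CPM in the other 4 libraries. Leukocyte markers summed to 65.2, 151, 169, 59.3 and 131 CPM from control to day 75, in which Cx3cr1 was at 48.6, 136, 149, 44.2 and 104 CPM and Ptprc (CD45), the defining leukocyte marker, stayed under 1.4 CPM.

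Sex composition of the pools was not aligned with the sides. Ddx3y, a Y-linked helicase, was at 61.4 CPM in the control, 52.8 and 36.3 early and 64.6 and 13.4 late, so each side had a library with a higher and one with a lower level. Tsix, the antisense partner of Xist, was at 11.3 CPM in the control, 16.6 and 24.8 early and 6.23 and 7.55 late. Reads of such an overlapping pair cannot be split with certainty unless strand was used in counting. Mitochondrially encoded genes summed to 1351, 971, 1820, 2009 and 1953 CPM. Beside mt-Atp8, mt-Co3 was at 16.2, 18.1, 210.5, 7.17 and 11.9 CPM (adjusted p = 0.064), so it stood apart at day 7 alone.

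Class shares differed between libraries of a side as well as between sides. C7-10 held 10.8% of control bystander nuclei (interval 9.76 to 11.9), 10.96% at day 2, 13.7% at day 7, 9.90% at day 21 and 8.96% at day 75. Both late shares were below both early ones. C13 held 10.5%, 9.38%, 12.1%, 10.0% and 15.4% in the same order, and C1/2 held 9.17%, 8.28%, 7.85%, 10.5% and 7.95%, with the sides overlapping in both classes. C3 held 7.41%, 5.70%, 6.05%, 5.15% and 8.63%. C5, C11, C12 and the named large diameter cluster (C4 and C6) each held 1.33% to 3.94%. Unnamed clusters held 48.8% to 56.7%, the largest of them led by Neb, Ano1 and Ndst4, and no cluster met the injured class markers. With 2 libraries a side an exact permutation test cannot go below a two-sided p of 0.333, so no share was tested.

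**Figure D5:**
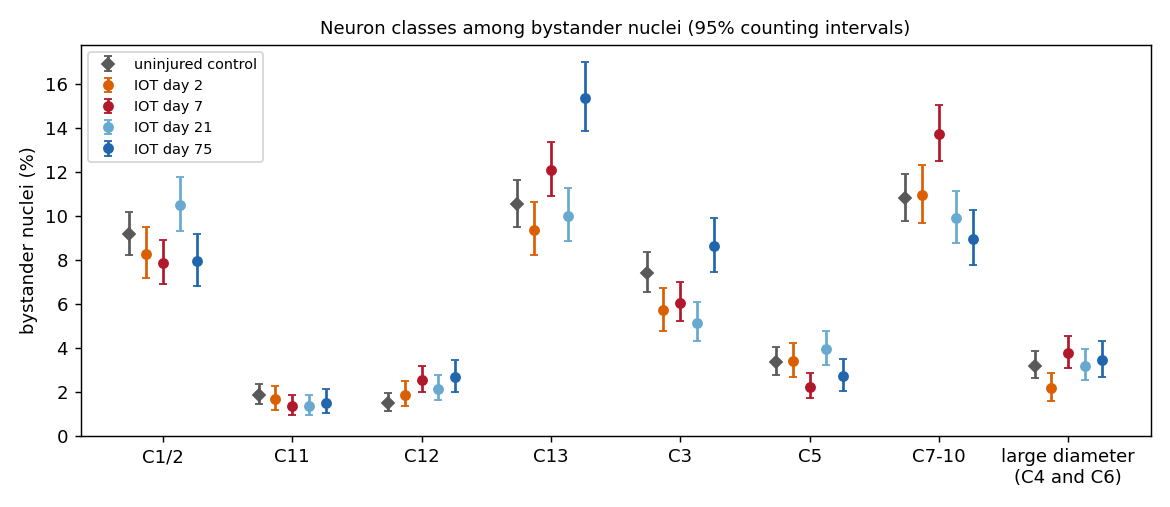
Share of bystander nuclei in each named neuron class by library, with exact 95% intervals that cover counting error only. C13 at day 75 (15.4%) and C7-10 at day 7 (13.7%) are the highest shares.

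Against the uninjured control, neither side differed in any gene by the edgeR test. Early bystander nuclei had 0 higher and 0 lower genes (0% and 0%), with 670 higher and 37 lower at an unadjusted p under 0.05, and a lowest adjusted p of 0.073. DESeq2 called 79 higher genes, and 49 of those were among the 58. Late bystander nuclei had 0 higher and 0 lower genes (0% and 0%), with 58 higher and 129 lower at an unadjusted p under 0.05, and DESeq2 called 0. The 58 genes had a median of 2.99 above the control early and 0.38 above it late on the log2 scale. They were called for higher early than late levels, so the early median follows in part from that choice. The control is a single library, shared by both comparisons, so its own spread was taken from the other groups. The early comparison called 249 genes when day 21 was left out, 246 without day 75, 46 without day 2 and 0 without day 7, and the late comparison called 49, 39, 0 and 1.

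Libraries of the same side also differed from each other. Over 10133 genes at 10 CPM or more, 595 (5.87%) differed at least 2-fold between days 2 and 7, and 916 (9.04%) between days 21 and 75. Between early and late libraries the counts were 600 for days 2 and 21, 527 for days 2 and 75, 1316 for days 7 and 21, and 636 for days 7 and 75. Against the control they were 504, 562, 340 and 328 from day 2 to day 75. Genes at least 2-fold lower than at day 7 numbered 971 at day 21 and 558 at day 75, while those at least 2-fold higher numbered 345 and 78.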

How the data were processed

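Nuclei of mouse trigeminal ganglia, selected for neurons by NeuN on magnetic beads, were sequenced with 10x Genomics chemistry (or Drop-seq for part of the control). The submitters' processing notes name bcl2fastq 2.17, Cell Ranger 2.1.0, STAR 2.5.3a, Seurat 2 and mm10. Introns were counted and non-neuronal clusters were removed by the authors, and the values they deposited are raw UMI counts per gene and nucleus. The deposited tables listed 17989 genes in all 5 libraries used.

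Counts were summed over gated nuclei per library (2 early, 2 late, 1 control), without the gate genes. The sums were tested in edgeR 4.0.16 (quasi-likelihood, TMM factors, filterByExpr) with Benjamini-Hochberg adjustment over all genes tested. Standard errors were derived from the F statistic, and intervals are 95%. Residual degrees of freedom were 2, and edgeR added 13.45 prior degrees of freedom, estimated across genes, in the bystander fit. Nuclei are not replicates, and the p-values rest only on the spread between these libraries, much of it estimated across genes. The fit was tested on simulated data with 200 changed genes. Libraries of a simulated side shared the same means, whereas those of the data were of different days. The simulation therefore cannot tell how the test behaves with such differences within a side.

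Bystander nuclei of the 5 libraries were clustered with scanpy 1.11.5 (2000 variable genes z-scored within libraries, 30 components, 20 neighbors, Leiden resolution 1), without gate, list, marker and called genes. A cluster took a class name from its markers at a mean z of at least 0.5, a lead of 0.25 and 3 markers detected. These limits were set after seeing the data, and doublets were not called.

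Genes named are the 12 largest falls (and rises, of which there were 0) past the threshold of 0.05 whose mean was 10 CPM or more and whose sides did not overlap, up to 4 members of each list with the lowest p, the gate genes and the class markers. The members and lists were chosen with earlier results of these data known. Alternatives were other scalings, DESeq2 1.42.0, no filter, each library left out, other gates, thinned nuclei, glia-poor nuclei, a trend over log2 day, and limma 3.58.1 on log2(CPM + 1) for classes weighted alike and for nuclei scaled before summing. Some genes are not reported here. The DESeq2 fits against the control were chosen after seeing the data.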

Additional observations from a re-analysis of the deposited data

Results flagged for a closer look

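The late against early difference was tested for a difference between bystander and removed nuclei (edgeR, library as block). Of 16534 genes, 110 (0.665%) had a higher difference in bystander nuclei and 7 (0.0423%) a lower one. Among genes named in the report, the interaction on the log2 scale was 0.48 for Rab23, 1.51 for Gal and 0.72 for Adcyap1. The gate split the nuclei on injury genes, so the interaction of an injury gene such as Gal follows in part from that choice. For Rab23 and Adcyap1 the part of that choice was not tested. Gal was at 31.3 and 21.9 CPM early and 20.5 and 9.04 CPM late in bystander nuclei, and at 105, 150.4, 41.0 and 9.88 CPM in removed nuclei.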

How the results depend on the processing

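The count of called genes, 58 and all lower late, became 3 in the 4 IOT libraries alone, 29 without TMM, 97 with DESeq2 (1 of them higher), 4 with nuclei scaled before summing, 13 with classes weighted alike and 0 for the trend on log2 day, and ranged from 1 to 356 with 1 library left out. The lowest count came without day 7 and the highest without day 75, where 47 genes were higher. It was 41 to 85 under the other 7 alternatives (RLE factors, no filter, at most 1 gate UMI, a stricter gate, no gate, thinned and glia-poor nuclei). All 58 genes kept a negative difference under each of the 17 alternatives. They were called for large negative differences in the same libraries, so the kept sign follows in part from that choice. Against the control, the early comparison called 79 genes with DESeq2 and 0 to 249 with 1 library left out, and the late comparison 0 to 49. The interaction called 25 to 418 genes with 1 library left out. At Leiden resolution 2, C5 had 1 called gene in place of 10, and the large diameter cluster held 7.13% of control bystander nuclei, 5.30% at day 2, 6.97% at day 7, 6.07% at day 21 and 5.73% at day 75. Thinning gave gated shares of 91.6%, 72.1%, 78.2%, 82.7% and 84.3% from control to day 75. With the stricter gate, control shares were 8.92% for C13, 6.43% for C3, 4.25% for C5 and 12.4% for C7-10, C13 held 7.47% at day 2 and C7-10 held 10.7% at day 75. The cause was not tested. No paired analysis was possible because the replicate numbers of the early and late sides only name different days.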
